A study of Mus musculus with 14 samples.

Results

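The genes described here are 7 members of the Sox family: *Sox5* and *Sox6* of the SoxD group, *Sox9* and *Sox8* of the SoxE group, and *Sox4*, *Sox11* and *Sox12* of the SoxC group. They were chosen by name, through their Entrez identifiers, and all 7 were found among the 24454 genes of the count table and among the 15125 genes tested. Expression was measured by RNA-seq in 14 libraries of cells sorted from mouse forelimb buds. All embryos carried the *Sox9* IRES-EGFP reporter allele, on a mixed Swiss Albino background, and each library was made from the pooled buds of many embryos. In every sort dead cells were removed, as were cells with the surface markers CD31, Ter119, CD45, EpCam, Gr1 or CD11b. The populations were S9-JAG1+ limb mesenchymal progenitors (LMPs; EGFP-negative, JAG1-positive, SCA-1-negative), S9-Pαhi LMPs (EGFP-, JAG1- and SCA-1-negative with high PDGFRα), S9+Pαhi osteochondrogenic progenitors (OCPs; EGFP-positive with high PDGFRα), S9+COL2+ chondroblasts (EGFP-positive with high PDGFRα, where COL2 stands in the phenotype but not in the gate that the labels give, which is that of OCPs) and S9-SCA-1+ cells. There were 3 libraries of each of the first 4 and 2 of S9-SCA-1+ cells, which carry the replicate numbers 2 and 3. Chondroblasts were sorted at E11.5 and all others at E10.5, so that population and stage cannot be told apart in any comparison with chondroblasts.

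SOX proteins bind DNA through an HMG box and differ in the domains outside it. SOX9 is the master transcription factor of the chondrocyte lineage, and SOX5 and SOX6, which lack a transactivation domain of their own, bind as dimers and act with SOX9 on cartilage enhancers, so that these 3 are known as the Sox trio. SOX8 is the close relative of SOX9, and SOX4, SOX11 and SOX12 act redundantly in many mesenchymal and neural progenitors, where they are known to keep cells alive and to activate *Tead2*.

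Because the members are paralogs, the stretch of 60 coding bases that they share best is shown first. It was found by sliding the coding sequence of *Sox9* along those of the other 6 without gaps, in frame, and lies in the HMG box. The sequences are from the GENCODE vM21 transcripts of GRCm38 (mm10), and capitals mark the bases that differ from *Sox9*.
Sox5: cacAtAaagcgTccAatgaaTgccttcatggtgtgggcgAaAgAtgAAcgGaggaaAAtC
Sox6: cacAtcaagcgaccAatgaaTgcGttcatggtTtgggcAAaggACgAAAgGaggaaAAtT
Sox9: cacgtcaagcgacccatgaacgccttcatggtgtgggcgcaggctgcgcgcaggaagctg
Sox8: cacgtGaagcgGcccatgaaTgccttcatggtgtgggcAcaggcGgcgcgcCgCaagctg
Sox4: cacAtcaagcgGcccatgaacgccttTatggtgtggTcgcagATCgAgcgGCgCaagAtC
Sox11: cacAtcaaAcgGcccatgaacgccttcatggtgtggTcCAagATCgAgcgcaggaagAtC
Sox12: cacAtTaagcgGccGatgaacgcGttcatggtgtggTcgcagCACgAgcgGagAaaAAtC
*Sox8* had 53 of the 60 bases of *Sox9*, *Sox11* 48, *Sox4* 47, *Sox5* 46, *Sox12* 45 and *Sox6* 44. Within the groups *Sox5* and *Sox6* shared 51 bases, *Sox4* and *Sox11* 53, *Sox4* and *Sox12* 51, and *Sox11* and *Sox12* 49. In mm10 the *Sox9* stretch lies on the plus strand at chr11:112782894-112782953, and those of *Sox5* (chr6:143841223-143841282) and *Sox6* (chr7:115489712-115489771) on the minus strand, each inside 1 coding exon. No run of 50 bases, the length of the reads, of any member's longest protein-coding transcript occurred in a transcript of another member, so that in this annotation a perfect read of 1 member fits no other. Of the 50-base runs of *Sox5*, 0.792% occurred in transcripts of other genes outside the family. *Sox4* overlaps the antisense transcript Gm26735 over 54.6% of its exon bases and *Sox8* the antisense transcript 2810468N07Rik over 11.0% in the GENCODE annotation, and use of strand in the counting was not given in the sources used here, so reads of these genes and of their antisense partners cannot be told apart.

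Library totals were between 20316583 and 29162751 counts, and *Sox8*, the member with the fewest reads, had 103 to 497 counts per library. Levels below are CPM, the counts of a gene divided by the library total scaled with TMM and multiplied by 1000000, and where members are compared with each other they are divided by the exon length of the table (RPKM). The log2 ratio of *Sox5* to *Sox6* is the exception and is a ratio of CPM. Sorted genes followed the labels: *Pdgfra*, *Jag1* and *Ly6a* (SCA-1) were highest in populations selected for them, and mean *Col2a1* in chondroblasts, for which a sort on it cannot be read from the gate given. Several libraries stood apart by markers of other cells. S9-SCA-1+ replicate 3 had a summed blood marker level of 1942 CPM against 68.2 CPM in replicate 2, and the summed level of 9 muscle markers was 2208 and 2260 CPM in S9-SCA-1+ cells against at most 134 CPM elsewhere. S9-JAG1+ replicate 3 had 22.6 CPM of posterior axial mesoderm markers against 6.12 and 7.04 CPM in replicates 1 and 2, and S9-JAG1+ replicate 1 had 77.7 CPM of flank and heart mesoderm markers against 40.5 and 41.7 CPM in replicates 2 and 3; without either library the counts of members called against S9-JAG1+ cells were the same. The hindlimb gene *Pitx1* was at 29.4 CPM in OCP replicate 1, 38.2 CPM in S9-Pαhi replicate 3 and 23.6 CPM in S9-JAG1+ replicate 1, above 20 CPM in these 3 libraries only. Without these 3 libraries the counts of members called below were the same except between OCPs and S9-JAG1+ LMPs, where *Sox6* was called too. In a bulk library fewer cells that express a gene and less RNA per cell cannot be told apart.

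A member was called where the edgeR quasi-likelihood test gave a Benjamini-Hochberg adjusted p of at most 0.1 and the log2 fold change was 1.2 or more in size. Each log2 fold change is followed by its standard error. The *Sox9* level between EGFP-positive and EGFP-negative cells was set by the sort and is given as a description, without a test. Over the 4 populations without S9-SCA-1+ cells the joint test passed the adjusted p of 0.1 for *Sox5*, *Sox6*, *Sox8*, *Sox4* and *Sox12*, and not for *Sox11* (adjusted p = 0.131, edgeR), which passed without OCP replicate 1, without S9-Pαhi replicate 2 and with the trend of counts with exon length removed. By this test 68.9% of all genes passed.

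**Figure D1:**
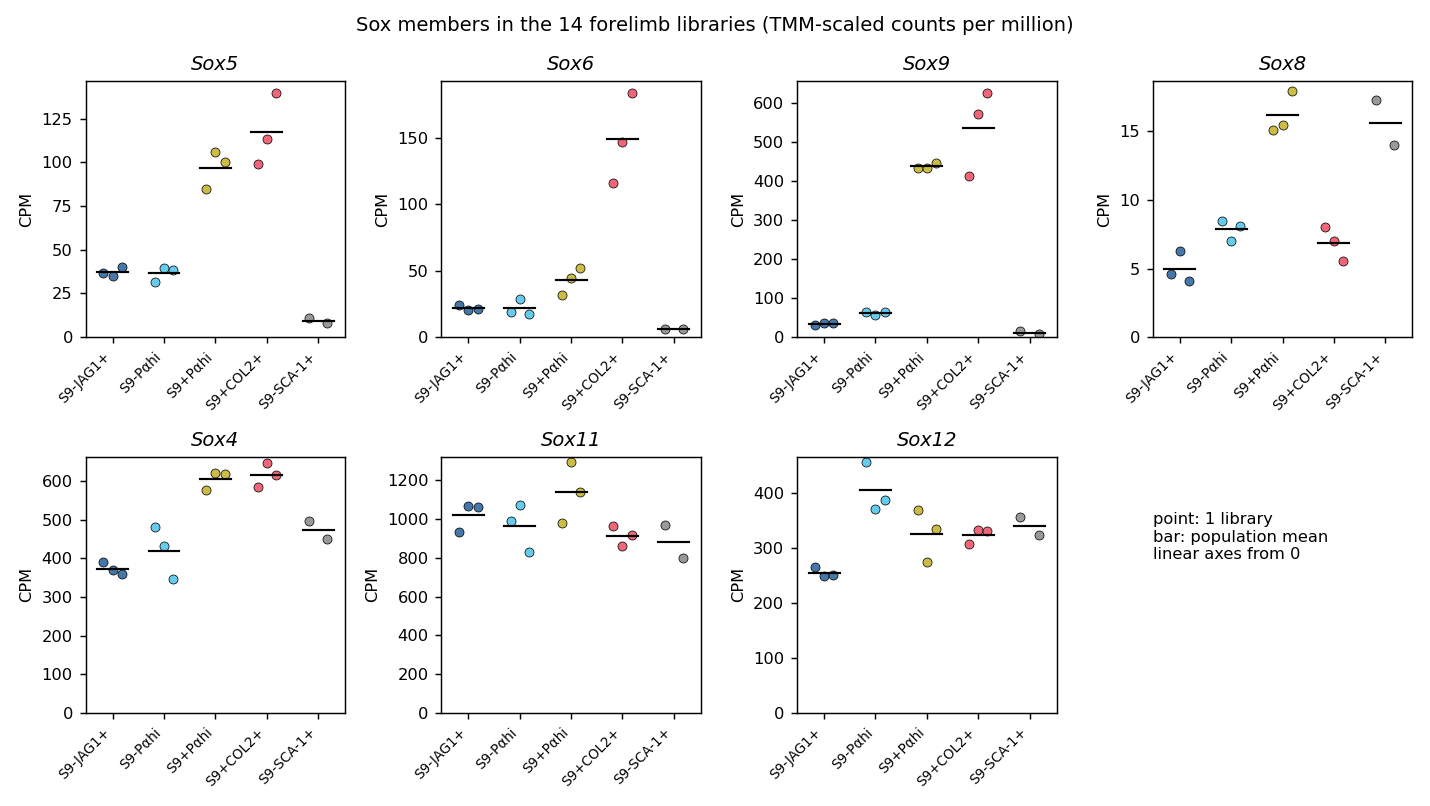
Levels of the 7 members in CPM on linear axes from 0, by population, with 1 point for each library and a bar at the population mean. *Sox5*, *Sox6* and *Sox9* reached 140, 184 and 625 CPM in chondroblasts and did not exceed 14.7 CPM in S9-SCA-1+ cells, *Sox8* was high in OCPs and S9-SCA-1+ cells, and *Sox11* overlapped between most populations.

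*Sox9*, whose reporter set the gates, was at 32.0, 36.8 and 35.6 CPM in the S9-JAG1+ libraries, at 64.3, 57.2 and 65.5 CPM in S9-Pαhi, at 434, 432 and 445 CPM in OCPs, at 411, 571 and 625 CPM in chondroblasts, and at 14.7 and 7.41 CPM in S9-SCA-1+ cells. The EGFP-negative LMPs thus held *Sox9* RNA at 7.96% and 14.3% of the OCP mean, and the libraries of S9-JAG1+ and S9-Pαhi cells did not overlap. Among LMPs, both EGFP-negative, *Sox9* was 1.79-fold higher in S9-Pαhi than in S9-JAG1+ cells (log2 fold change 0.84 ± 0.19, adjusted p = 0.00493, edgeR), which is under the fold limit. It was lower in S9-SCA-1+ than in S9-JAG1+ cells by a log2 fold change of -1.66 ± 0.23 (adjusted p = 7.12e-05, edgeR). Chondroblasts and OCPs overlapped, since chondroblast replicate 1 was below all OCP libraries, and their difference missed the threshold (0.29 ± 0.18, 95% interval -0.06 to 0.64, adjusted p = 0.246, edgeR).

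*Sox5*, which with *Sox6* stabilises SOX9 on its cartilage enhancers, was at 36.5, 35.2 and 40.1 CPM in S9-JAG1+ and at 31.5, 39.3 and 38.4 CPM in S9-Pαhi libraries. It was at 84.9, 106 and 100.04 CPM in OCPs, at 99.1, 114 and 140 CPM in chondroblasts and at 10.8 and 8.01 CPM in S9-SCA-1+ cells. Each OCP and chondroblast library was above each LMP library, and each LMP library was above both S9-SCA-1+ libraries. From S9-Pαhi LMPs to OCPs *Sox5* rose 2.66-fold (log2 fold change 1.41 ± 0.14, adjusted p = 2.52e-05, edgeR), as the only one of the 6 members outside the gate to be called in that comparison, where 4.84% of all genes were called. The LMP populations did not differ detectably (-0.03 ± 0.14, 95% interval -0.32 to 0.25, adjusted p = 0.897, edgeR), nor did OCPs and chondroblasts, whose ranges overlapped (0.28 ± 0.14, 95% interval 0.00 to 0.55, adjusted p = 0.162, edgeR).

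*Sox6*, the other SoxD factor of the trio, was at 24.5, 20.1 and 21.2 CPM in S9-JAG1+ and at 19.3, 28.8 and 17.7 CPM in S9-Pαhi libraries. It was at 31.8, 44.8 and 51.7 CPM in OCPs, at 116, 147 and 184 CPM in chondroblasts and at 5.88 and 5.84 CPM in S9-SCA-1+ cells. The 3 groups formed by LMPs, OCPs and chondroblasts did not overlap. *Sox6* rose 3.48-fold from OCPs to chondroblasts (log2 fold change 1.80 ± 0.21, adjusted p = 3.8e-05, edgeR), where *Sox5* was not called. It also rose from S9-Pαhi LMPs to OCPs, under the fold limit (0.96 ± 0.21, adjusted p = 0.00831, edgeR). Of the 7 members 2 were called between chondroblasts and OCPs, *Sox6* and *Sox8*, where 7.77% of all genes were called.

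The balance between *Sox5* and *Sox6* in chondroblasts differed from that in the other populations, and per exon length the levels of these genes were nearly equal there. The log2 ratio of *Sox5* to *Sox6* was taken on CPM, not divided by exon length. It was between 0.57 and 0.92 in S9-JAG1+ libraries, between 0.45 and 1.12 in S9-Pαhi, between 0.95 and 1.42 in OCPs and between 0.46 and 0.88 in S9-SCA-1+ cells. In chondroblasts it was -0.23, -0.37 and -0.40, below 0 in all 3 libraries and in no other. *Sox6* made up 25.5% ± 3.11 (SD, n = 3) of the summed *Sox5* and *Sox6* RPKM in OCPs and 49.6% ± 1.60 (SD, n = 3) in chondroblasts. With *Sox13*, the remaining SoxD gene, in the sum the *Sox6* share was 15.7% ± 3.31 in OCPs and 41.6% ± 2.70 in chondroblasts (SD, n = 3 each). The ratio differed by -1.54 between chondroblasts and OCPs in an exact permutation test of the 3 against 3 libraries (two-sided p = 0.1, the smallest that this design allows), a test added after the values were seen. Over both EGFP-positive against both LMP populations the difference was -0.33 (exact permutation test of 6 against 6 libraries, two-sided p = 0.374), and without chondroblasts it turned to 0.44 (p = 0.0476, exact permutation test), so that the means of OCPs and chondroblasts lay on opposite sides of the LMP means, although S9-Pαhi replicate 3 (1.12) was above OCP replicate 3 (0.95). The summed *Sox5* and *Sox6* RPKM was 7.42 ± 0.415 in S9-JAG1+, 7.30 ± 1.05 in S9-Pαhi, 17.8 ± 2.45 in OCPs and 31.9 ± 6.45 in chondroblasts (SD, n = 3 each). With *Sox13*, which exceeded this sum in LMPs (10.2 ± 0.412 and 11.2 ± 2.34 RPKM), the sum was 17.6 ± 0.549, 18.5 ± 1.63, 29.0 ± 0.892 and 38.0 ± 6.35 RPKM in the same order, a smaller relative difference between OCPs and chondroblasts. Relative to *Sox9* RPKM the sum of *Sox5* and *Sox6* was 0.889 in S9-JAG1+, 0.491 in S9-Pαhi, 0.169 in OCPs and 0.248 in chondroblasts, values given without a test since *Sox9* set the gates. *Sox5* and *Sox6* are long, and exon length moved with library: the trend with length shifted *Sox6* by between -0.28 and 0.21 on the log2 scale, and with this trend removed *Sox5* and *Sox6* stayed called where they are called above.

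**Figure D2:**
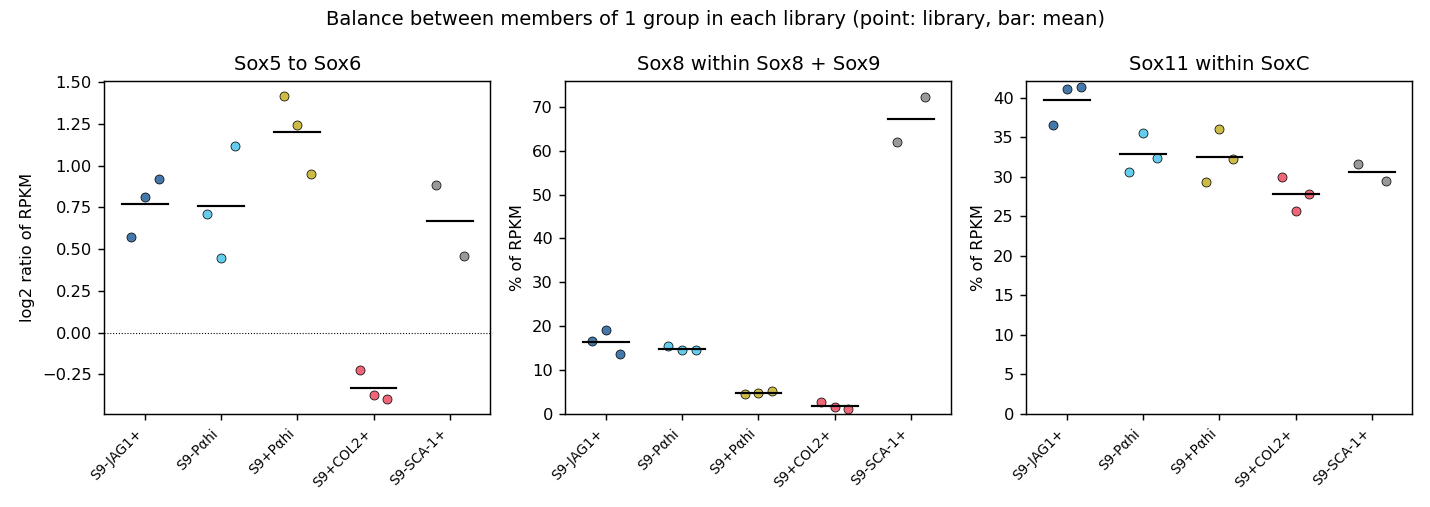
Balance between members of a group in each library, with 1 point for each library and a bar at the population mean: the log2 ratio of *Sox5* to *Sox6* CPM, the percentage of *Sox8* in the summed *Sox8* and *Sox9* RPKM, and the percentage of *Sox11* in the summed SoxC RPKM. The axis of the first panel is labelled RPKM, but its values are not divided by exon length. The *Sox5* to *Sox6* ratio of CPM was below 0 in the 3 chondroblast libraries only, whereas in RPKM *Sox5* exceeded *Sox6* in chondroblast replicate 1. *Sox8* made up 62.0% and 72.3% of its sum with *Sox9* in the S9-SCA-1+ libraries.

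*Sox8*, a SoxE factor close to SOX9 in sequence, had the lowest reads of all members and a pattern unlike that of *Sox9*. It was at 4.62, 6.24 and 4.08 CPM in S9-JAG1+, at 8.46, 7.03 and 8.07 CPM in S9-Pαhi, at 15.1, 15.5 and 17.98 CPM in OCPs, at 8.04, 6.98 and 5.54 CPM in chondroblasts, and at 17.3 and 14.0 CPM in S9-SCA-1+ cells. OCPs were above all LMP and chondroblast libraries, chondroblasts overlapped both LMP populations, and S9-SCA-1+ cells overlapped OCPs. From OCPs to chondroblasts *Sox8* fell by 1.24 on the log2 scale (SE 0.17, adjusted p = 0.000168, edgeR), just past the fold limit. With library totals, with the length trend removed, without OCP replicate 3 or without chondroblast replicate 3 the size of this change was between 1.13 and 1.17 and under the limit. *Sox8* rose from S9-Pαhi LMPs to OCPs by 1.05 ± 0.17 (adjusted p = 0.0011, edgeR), under the limit, and was 3.25-fold higher in OCPs than in S9-JAG1+ cells (1.70 ± 0.18, adjusted p = 4.61e-06, edgeR). S9-SCA-1+ cells exceeded S9-JAG1+ cells 3.14-fold (1.65 ± 0.19, adjusted p = 1.35e-05, edgeR) and chondroblasts by 1.19 ± 0.19 (adjusted p = 0.000109, edgeR), just under the limit, while against OCPs the difference was -0.05 ± 0.19 (95% interval -0.41 to 0.31, adjusted p = 0.852, edgeR). The share of *Sox8* in the summed *Sox8* and *Sox9* RPKM was 67.1% ± 7.31 in S9-SCA-1+ cells (SD, n = 2) against 16.5% ± 2.67 in S9-JAG1+ and 14.8% ± 0.480 in S9-Pαhi cells (SD, n = 3 each), which are EGFP-negative too. In OCPs it was 4.87% ± 0.369 and in chondroblasts 1.83% ± 0.725 (SD, n = 3 each), where the sort set the high *Sox9* level. Muscle markers were high in the same S9-SCA-1+ libraries, and their part in the *Sox8* level was not tested.

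The RefSeq start of *Sox8* lies 124 bases from that of *Cerox1*, a long noncoding RNA gene on the other strand. The *Sox8* promoter from RefSeq (GRCm38.p6, minus strand, chr17:25570637-25570936) is shown because both genes start in it, with the bases between the annotated genes in capitals.
Sox8 promoter: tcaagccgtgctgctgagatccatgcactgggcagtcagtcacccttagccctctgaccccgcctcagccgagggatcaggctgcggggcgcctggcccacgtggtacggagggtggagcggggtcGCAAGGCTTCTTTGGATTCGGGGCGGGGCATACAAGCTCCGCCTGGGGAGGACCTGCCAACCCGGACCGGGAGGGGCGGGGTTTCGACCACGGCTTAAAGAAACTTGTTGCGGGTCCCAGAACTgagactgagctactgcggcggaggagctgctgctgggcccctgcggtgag
*Cerox1*, singled out after its values were seen, was at 1.11, 0.629 and 0.991 CPM in S9-JAG1+, 2.52, 1.39 and 2.64 CPM in S9-Pαhi, 2.51, 3.85 and 4.05 CPM in OCPs, 1.95, 2.29 and 1.73 CPM in chondroblasts and 3.60 and 3.92 CPM in S9-SCA-1+ cells. Like *Sox8* it was lower in S9-JAG1+ cells than in OCPs (log2 fold change 1.92 ± 0.30, adjusted p = 0.000162, edgeR) and than in S9-SCA-1+ cells (2.04 ± 0.32, adjusted p = 0.000229, edgeR), and it fell from OCPs to chondroblasts by 0.80 (SE 0.27, adjusted p = 0.0446, edgeR), under the fold limit. Over the 14 libraries log2(CPM + 1) of *Cerox1* and *Sox8* had a Pearson r of 0.868 and a Spearman rho of 0.890, and r was 0.824 without the 2 libraries farthest from the *Sox8* median. These libraries share populations, and the genes overlap in the GENCODE annotation, so the values are a description.

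*Sox4*, *Sox11* and *Sox12*, the SoxC genes, were the most highly expressed members in LMPs and differed least between populations. Mean RPKM of *Sox4* was between 126 and 208, that of *Sox11* between 104 and 135 and that of *Sox12* between 57.5 and 91.2 over the 5 populations, against 8.39 to 15.03 for *Sox9* and at most 5.08 for *Sox5*, *Sox6* and *Sox8* in LMPs. No SoxC gene was called by edgeR in any of the 10 comparisons between populations, nor by DESeq2, while 15 of the 30 pairs of gene and comparison had an unadjusted p under 0.05, and 15 passed the adjusted p alone. Between 4.84% and 19.4% of all genes were called by edgeR, with S9-SCA-1+ against S9-Pαhi cells left out. The adjusted p alone was passed by 28.1% of all genes between LMPs, 20.1% from S9-Pαhi LMPs to OCPs and 34.8% from OCPs to chondroblasts. For the other comparisons this share is not given.

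*Sox4* was at 390, 369 and 360 CPM in S9-JAG1+, 481, 432 and 346 CPM in S9-Pαhi, 577, 621 and 618 CPM in OCPs, 584, 648 and 615 CPM in chondroblasts and 497 and 449 CPM in S9-SCA-1+ cells. All 6 EGFP-positive libraries were above all 8 EGFP-negative ones. *Sox4* rose 1.44-fold from S9-Pαhi LMPs to OCPs (log2 fold change 0.53 ± 0.10, adjusted p = 0.00379, edgeR), and chondroblasts and OCPs differed by 0.02 ± 0.10 (95% interval -0.17 to 0.22, adjusted p = 0.88, edgeR).

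*Sox11* was at 931, 1069 and 1060.4 CPM in S9-JAG1+, 989, 1072 and 829 CPM in S9-Pαhi, 978, 1296 and 1141 CPM in OCPs, 965, 860 and 918 CPM in chondroblasts and 970 and 796 CPM in S9-SCA-1+ cells. Its ranges overlapped in 8 of the 10 comparisons, the exceptions being OCPs against chondroblasts and against S9-SCA-1+ cells. It was lower in chondroblasts than in OCPs by a log2 fold change of -0.32 ± 0.12 (adjusted p = 0.0661, edgeR) and lower in S9-SCA-1+ cells than in OCPs by -0.37 ± 0.14 (adjusted p = 0.0463, edgeR). *Sox11* is long as well, with a trend with exon length of between -0.25 and 0.19 on the log2 scale among libraries.

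*Sox12* was at 265, 249 and 251 CPM in S9-JAG1+, 455, 371 and 387 CPM in S9-Pαhi, 368, 274 and 334 CPM in OCPs, 306, 332 and 330.2 CPM in chondroblasts and 356 and 324 CPM in S9-SCA-1+ cells. It was highest in S9-Pαhi libraries and lowest in S9-JAG1+ libraries. The difference between these LMPs was 1.59-fold (log2 fold change 0.67 ± 0.10, adjusted p = 0.000377, edgeR), and *Sox12* fell from S9-Pαhi LMPs to OCPs by 0.31 (SE 0.10, adjusted p = 0.0649, edgeR), where *Sox4* rose. No member was called between the LMP populations by edgeR or DESeq2, where edgeR called 7.00% of all genes. *Sox9*, *Sox8* and *Sox12*, the 3 with an unadjusted p under 0.05, passed the adjusted p alone, as did 28.1% of all genes.

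The summed SoxC RPKM was 304 ± 2.79 in S9-JAG1+, 347 ± 40.9 in S9-Pαhi, 413 ± 16.7 in OCPs and 389 ± 7.70 in chondroblasts (SD, n = 3 each). It was higher by 75.3 RPKM in the 6 EGFP-positive libraries than in the 6 LMP libraries (exact permutation test over the libraries, two-sided p = 0.00433, adjusted p = 0.013 over 3 such tests). *Sox11* made up 39.6% ± 2.74 of this sum in S9-JAG1+, 32.8% ± 2.51 in S9-Pαhi, 32.5% ± 3.34 in OCPs and 27.8% ± 2.14 in chondroblasts (SD, n = 3 each). Its share was lower by 6.07 percentage points in the EGFP-positive libraries (exact permutation test, two-sided p = 0.026, adjusted p = 0.039 over 3 such tests). Without chondroblasts the difference was -3.71 points (p = 0.262, exact permutation test), and S9-Pαhi LMPs and OCPs had nearly the same share. *Sox4* made up 49.4% to 49.9% of the sum in OCPs and 51.9% to 55.4% in chondroblasts, above all LMP libraries (38.8% to 43.8%). These tests pool populations that differ among themselves.

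**Figure D3:**
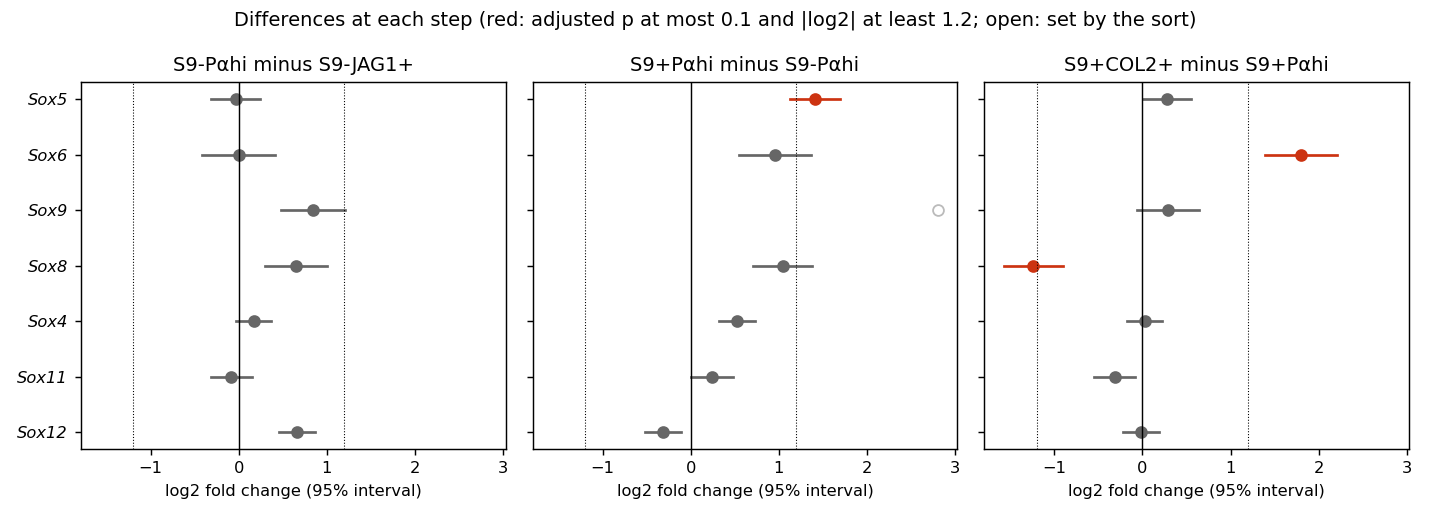
Log2 fold change of each member from S9-JAG1+ to S9-Pαhi LMPs, from S9-Pαhi LMPs to OCPs and from OCPs to chondroblasts, with a line for the 95% interval and dotted lines at the fold limit. Red marks values past both limits, which are *Sox5* at the second step and *Sox6* and *Sox8* at the third; the open point is *Sox9* at the second step, whose difference was set by the sort and is not tested.

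Against OCPs, 2 of the 6 members outside the gate were called in S9-SCA-1+ cells, where 12.8% of all genes were called: *Sox5* was lower by a log2 fold change of -3.36 ± 0.19 (adjusted p = 1.22e-08, edgeR) and *Sox6* by -2.87 ± 0.27 (adjusted p = 2.03e-06, edgeR). In the comparison with S9-JAG1+ LMPs, where *Sox9* is not gated, 4 of the 7 members were called, against 11.4% of all genes. *Sox5* was lower by -1.98 ± 0.18, *Sox6* by -1.90 ± 0.26 and *Sox9* as given above, and *Sox8* was higher. Against S9-Pαhi LMPs 3 of 7 were called, *Sox5*, *Sox6* and *Sox9*, all lower, where 5.58% of all genes were called lower. The other shares of this paragraph count both directions, and are not comparable with the 5.58%. *Sox5* and *Sox6* were also the only members outside the gate called between chondroblasts and S9-JAG1+ cells (1.66 ± 0.14 and 2.76 ± 0.22 on the log2 scale) and between chondroblasts and S9-Pαhi cells (1.69 ± 0.14 and 2.76 ± 0.22), where 19.4% and 12.7% of all genes were called. Between OCPs and S9-JAG1+ cells they were *Sox5* (1.38 ± 0.14) and *Sox8*, against 12.5% of all genes, and between S9-SCA-1+ cells and chondroblasts *Sox5* (-3.64 ± 0.19) and *Sox6* (-4.67 ± 0.29), against 19.4%. These comparisons share libraries and are not independent.

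Cartilage genes known as targets of SOX9 and SoxD factors were counted from a list of 22, of which 19 were tested. From S9-Pαhi LMPs to OCPs 9 were called higher by edgeR (at an adjusted p of 0.1 alone, 11 were higher and 1 lower), with a median log2 fold change of 1.11 against 0.02 over all genes. Among the 9, *Matn1* and *Cytl1* were at 0 in all S9-Pαhi libraries and at means of 0.125 and 0.274 CPM in OCPs. The 3-count floor was 0.101 to 0.149 CPM. Of all genes 3.48% were called higher and 20.1% passed the adjusted p alone, in either direction. *Col2a1*, the main collagen of cartilage, rose by 3.46 ± 0.25 and *Col9a1* by 2.51 ± 0.17 on the log2 scale (adjusted p = 1.22e-06 and 8.48e-07, edgeR). From OCPs to chondroblasts 12 of the 19 were called higher, where 6.60% of all genes were, but 3 of these, *Matn1*, *Comp* and *Cytl1*, entered the test only through their level in chondroblasts, so that their direction was fixed. Of the other 16 genes 9 were called higher (14 at the adjusted p alone), with a median log2 fold change of 2.03 against -0.03 over all genes that passed the filter without chondroblasts, of which 5.22% were called higher. At the step from S9-Pαhi LMPs to OCPs all 19 passed the filter without OCPs as well, and 3.34% of genes that passed it were called higher. *Matn1*, *Comp*, *Cytl1*, *Cnmd* and *Matn4* passed it then only through chondroblasts. Of these, *Matn1*, *Cytl1*, *Cnmd* and *Matn4* are among the 9 called and were at most 0.0407 CPM in S9-Pαhi libraries. They could hardly fall at this step, and the 3.34% does not adjust for that. From OCPs to chondroblasts 34.8% of all genes passed the adjusted p alone, in either direction. *Acan*, the cartilage proteoglycan, was at 0.203, 0.143 and 0.0362 CPM in OCPs and at 3.43, 10.3 and 14.9 CPM in chondroblasts, and *Matn4* rose by 4.64 ± 0.44 (adjusted p = 7.59e-06, edgeR). *Col2a1*, which COL2 in the label of chondroblasts names, was higher by 0.64 ± 0.23 at this step (adjusted p = 0.0534, edgeR), under the fold limit. *Matn3* and *Hapln1* were not called at either step.

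**Figure D4:**
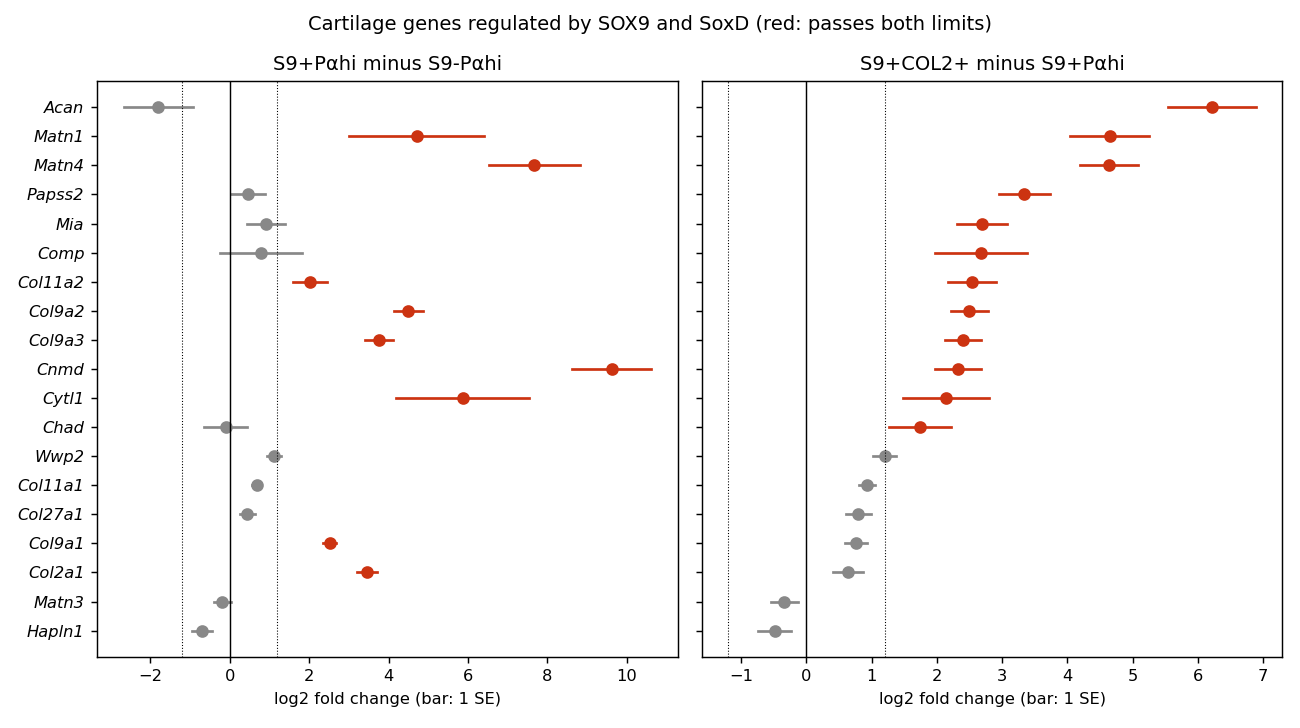
Log2 fold change of the 19 tested cartilage genes from S9-Pαhi LMPs to OCPs and from OCPs to chondroblasts, with a line of 1 standard error to each side and dotted lines at the fold limit. Red marks 9 genes at the first of these steps and 12 at the second, where *Matn1*, *Comp* and *Cytl1* entered the test only through chondroblasts; *Cnmd*, *Matn1* and *Cytl1* were at 0 in all S9-Pαhi libraries, so the size of their first value depends on the fit.

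Of 11 SOX9 cofactors, all tested, 2 were called higher from S9-Pαhi LMPs to OCPs by edgeR, where 3.48% of all genes were: *Ppargc1a*, a transcriptional coactivator (log2 fold change 1.51 ± 0.16, adjusted p = 2.82e-05), and *Nkx3-2*, whose level in OCPs was near the 3-count floor. *Nkx3-2* was at 0 in all S9-Pαhi libraries, so it could not fall at this step. At an adjusted p of 0.1 alone 5 were higher, against 20.1% of all genes in either direction. From OCPs to chondroblasts the 1 gene called was *Nkx3-2*, which entered the test only through chondroblasts, and 3 were higher and 2 lower at the adjusted p alone, against 34.8% of all genes. *Wwp2*, a ubiquitin ligase that binds SOX9 and whose gene is also its target, rose by 1.11 ± 0.17 and by 1.198 ± 0.172 at these steps (adjusted p = 0.000739 and 0.000219, edgeR), both under the limit. *Nkx3-2*, a repressor that acts with SOX9 in cartilage, was at 5.72, 9.10 and 12.1 CPM in chondroblasts and at most 0.162 CPM in every other library. Of the 6 known SoxC targets *Tead2*, *Tubb3*, *Gdf5*, *Mex3b*, *Dcx* and *Dbn1*, 1 passed the adjusted p alone from S9-Pαhi LMPs to OCPs, where 20.1% of all genes did: *Dcx*, a microtubule protein, rose by 0.71 ± 0.14 on the log2 scale (adjusted p = 0.00399, edgeR). From OCPs to chondroblasts *Dcx* fell by 0.95 (SE 0.14, adjusted p = 0.000255, edgeR) and *Tubb3*, a tubulin, rose by 0.96 ± 0.23 (adjusted p = 0.00725, edgeR), both under the fold limit. In all, 2 of the 6 were higher and 2 lower at this step by the adjusted p alone, against 34.8% of all genes, and 1 was called higher, *Gdf5*, the joint morphogen (3.13 ± 0.21, adjusted p = 5.91e-07, edgeR). *Tead2*, the transcription factor through which SoxC factors are known to act on Hippo signalling, fell by 0.33 (SE 0.09) at that step (adjusted p = 0.0147, edgeR), under the limit.

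Among the 13 other Sox genes 8 were tested. *Sox13* went against *Sox6* at the last step: it was at 45.8, 36.0 and 36.5 CPM in OCPs, at 21.6, 21.8 and 20.9 CPM in chondroblasts and at 58.2 and 53.7 CPM in S9-SCA-1+ cells, and fell by 0.88 (SE 0.14) from OCPs to chondroblasts (adjusted p = 0.000394, edgeR), under the fold limit. *Sox10*, the remaining SoxE gene and a neural crest factor, was at 1.87 to 3.99 CPM in the 6 EGFP-positive libraries and at most 0.178 CPM in the other 8. It entered the tests only through its level in EGFP-positive cells, which fixed the direction, so no test of *Sox10* is given. Among 9 neural crest and glia markers *Erbb3* rose with it, from 0.285 to 0.349 CPM in S9-Pαhi to 2.27 to 5.71 CPM in OCPs and 9.69 to 18.3 CPM in chondroblasts, while *Foxd3* and *S100b* were at most 0.571 CPM. The summed level of these 9 markers was 28.2 to 35.1 CPM in OCPs, 47.3 to 55.0 CPM in chondroblasts and 14.1 to 19.9 CPM in the others, and their part in the *Sox10* level was not tested. *Sox3* was at 3.01 and 2.85 CPM in the S9-SCA-1+ libraries and did not exceed 0.432 CPM in the others.

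The pattern of each member over the 14 libraries was compared with all tested genes of an average of at least 3 log2 CPM. Between members, log2 CPM of *Sox5* and *Sox9* had a Pearson r of 0.96, *Sox5* and *Sox6* of 0.93 and *Sox6* and *Sox9* of 0.89, whereas *Sox8* had 0.09 with *Sox9* and the SoxC genes between -0.32 and 0.21 with each other. The genes most like *Sox9* were *Dhrs3* (r = 0.986), *Sh3d19*, *Fam181b*, *Sned1* and *Rgs3*. Those most like *Sox5* were *Rftn2* (r = 0.985), *Dhrs3*, *Klf12*, *Mbnl3* and *Fbxo41*, and those most like *Sox6* were *Smarca1* (r = 0.981), *Lrba*, *Mtmr6*, *Cacna1h* and *Phyh*. *Bcl2l11* (r = 0.935), *Igfbp2*, *Ank3*, *Cyren* and *Eno3* were most like *Sox8*. For the SoxC genes they were *Col2a1* (r = 0.959), *Synrg*, *Tmem44* and *Adam23* with *Sox4*, *Tanc1* (r = 0.920), *Mphosph9*, *Slc38a2*, *Rbm33* and *Cep72* with *Sox11*, and *Akr7a5* (r = 0.906), *Map2k3*, *Ttyh3*, *Pbx2* and *Igfbp4* with *Sox12*. The libraries share populations and scaling, and the EGFP gate largely set the *Sox9* pattern, so correlations with *Sox9* are a description. *Sox5*, *Sox6* and *Sox9* were each lowest in the S9-SCA-1+ libraries, and r between members without these libraries is not given. Without S9-SCA-1+ cells 4 of the 5 genes most like *Sox11* were found again, and at most 1 of the 5 for each of the other members.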

How the data were processed

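The authors deposited whole-number counts of reads per gene, 1 column for each of the 14 libraries, without normalization. According to the methods, single-end poly(A)+ RNA reads of 50 bases were aligned with STAR to mm10, 1 position was kept for a read with several, and reads starting in a RefSeq exon were counted with qCount; 0 columns could not be mapped to a sample. Symbols were matched for 24374 of 24454 identifiers (RefSeq, GRCm38.p6), and the other 80 held 0.358% of counts. Genes were kept by filterByExpr (15125), scaled with TMM and fitted with edgeR 4.0.16 in R 4.3.3, with a mean for each population over all 14 libraries, a quasi-likelihood F test, and Benjamini-Hochberg adjustment over all tested genes. Standard errors are the log2 fold change divided by the square root of F, and 95% intervals are normal. Tested on simulated data for chondroblasts against OCPs, 197 of 200 changed genes of 14764 were recovered with 1 false call. All planted changes were larger than the fold limit, in genes well above the floor, and the simulated spread followed the mean level alone. Recovery near the limit was thus not tested. Permutation tests were exact over libraries.

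The members and lists were chosen with earlier results of these data known. Named genes were the members, list genes that a sentence turns on, and for each member the 5 genes of highest correlation. A gene that this rule names and a marker gene are not reported here. Replicate numbers did not pair libraries: the mean correlation of deviations of same-numbered libraries was between -0.01 and 0.05. Whether libraries of different numbers came from the same pool of buds was not tested, and *Pitx1* was high in libraries of different numbers. The summed blood marker level was 6.32 CPM in OCP replicate 2, 5.04 CPM in S9-Pαhi replicate 2 and 2.46 CPM in S9-JAG1+ replicate 3. Every other library had at least 17.2 CPM. The main tests, permutation tests included, treat all libraries as unpaired, so any pairing through shared pools is ignored. Libraries of a population differed by 8.20 to 81.1 in chi-square per degree of freedom, so none was a copy. P-values measure the spread between libraries of pooled buds. Alternatives were DESeq2 1.42.0, other scalings, filters, limits and fewer libraries.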

Additional observations from a re-analysis of the deposited data

How the results depend on the processing

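For 60 of 70 pairs of a member and a comparison some setting passed an adjusted p of 0.1. Over their alternatives, the log2 fold change kept its direction and its side of the threshold 955 times, passed it 32 times, no longer passed 4 times and turned 5 times. The pairs include *Sox9* between EGFP-positive and EGFP-negative cells, where the sort set the difference. Its steady direction there is no result. No fold limit, by construction, raised the members called to 3 between LMPs, 5 from S9-Pαhi LMPs to OCPs, 5 from S9-JAG1+ LMPs to OCPs, 5 and 4 for chondroblasts against S9-JAG1+ and S9-Pαhi LMPs, and 4 each for S9-SCA-1+ cells against OCPs and chondroblasts. It also added *Sox11* from OCPs to chondroblasts. For S9-SCA-1+ cells it added *Sox4* and *Sox12* against S9-JAG1+ LMPs and *Sox8* against S9-Pαhi LMPs. Of all genes 28.1% passed the adjusted p alone between LMPs, 20.1% from S9-Pαhi LMPs to OCPs and 34.8% from OCPs to chondroblasts. This share is not given for the other comparisons, so their counts cannot be judged against it. Library totals, or the length trend removed, left 1 member called from OCPs to chondroblasts (*Sox8* lost). Leaving out each library in turn gave 1 to 2 called there (1 without OCP replicate 3 or chondroblast replicate 3), 1 to 2 from S9-Pαhi LMPs to OCPs (2 without S9-Pαhi replicate 2, where *Sox6* reached 1.21), and 2 to 3 for S9-SCA-1+ cells against chondroblasts, through *Sox8*. In the joint test *Sox11* passed too with the DESeq2 likelihood ratio test, with the length trend removed, without OCP replicate 1, without S9-Pαhi replicate 2 and without the 3 libraries with *Pitx1*. The removal of the length trend and of these libraries, the sums with *Sox13* and the counts of genes that pass the filter without the higher population were chosen after seeing the data.

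The sign of small *Sox11* differences turned: chondroblasts against S9-Pαhi LMPs was 0.030 with library totals and -0.17 to 0.0087 when leaving out each library, and S9-SCA-1+ cells against chondroblasts was 0.29 with the length trend removed (adjusted p = 0.0107, edgeR) and -0.20 to 0.086 when leaving out each library; the cause was not tested. The *Sox5* to *Sox6* ratio difference turned to 0.44 without chondroblasts (exact permutation p = 0.0476) and was -0.52 to -0.16 when leaving out each library. The difference in *Sox11* share was -3.71 points without chondroblasts (exact permutation p = 0.262), -5.76 on counts not divided by length (p = 0.0628), and -7.24 to -5.06 when leaving out each library (p = 0.0108 to 0.0584, over 0.05 without OCP replicate 1, chondroblast replicate 2 or 3, or S9-JAG1+ replicate 2 or 3). That in summed SoxC RPKM was 70.5 to 86.7 when leaving out each library.

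The replicate numbers do not pair the libraries. With the replicate block 0, 1 and 2 members were called at the 3 steps, as without it, and 3 against 2 for S9-SCA-1+ cells against chondroblasts. With the block the exact permutation p was 0.426 for the *Sox5* to *Sox6* ratio, 0.0278 for the *Sox11* share and 0.0185 for the SoxC sum.

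*Sox8*, at 103 to 497 counts per library, is limited most by depth, and S9-SCA-1+ cells by 2 libraries, 1 of them with blood markers.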

Other observations

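*BC006965*, singled out after its values were seen, is a long noncoding RNA gene at chr11:112663927-112711356 (mm10), 70853 bases from *Sox9* with no other RefSeq gene between them. It was at 0.841, 1.47 and 1.14 CPM in chondroblasts and at most 0.0951 CPM in each of the other 11 libraries, under the level of 3 counts, which is 0.101 to 0.149 CPM. It entered the tests only through its level in chondroblasts, so no test is given. OCPs had *Sox9* at 432 to 445 CPM.

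Gap tests for a library far from the others, made at both ends of the 6 LMP and of the 6 EGFP-positive libraries for the 3 tested balances, singled out none at the 95% level of Dixon's test, and the largest gap was 0.371 of the range.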
